A study of Mus musculus with 8 samples.

Results

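The genes described here are 52 genes of mitosis, listed by name, with earlier results of these arrays known, and grouped by role into kinetochore, checkpoint, anaphase control, chromosomal passenger complex, mitotic regulators, spindle, condensin and chromosomes, and cytokinesis. All 52 had a probe set annotated to that gene alone, among the 19937 genes measured. RNA came from 4 mouse liver tumours driven by human c-MYC, whose expression was liver-specific through the CEBPB-LAP promoter with doxycycline control and which were collected at the humane endpoint, and from 4 normal livers of matched control mice. The labels give 1 treatment text for every sample, so they do not tell whether the control mice carried the transgene or received doxycycline, and they state neither strain nor age. Each sample was hybridised in 1 colour to 1 Affymetrix Mouse Gene 1.0 ST array, and values are log2 signals after RMA, with no depth to report. Nothing in the labels says which mouse a sample came from, and the p-values here reflect array-to-array spread alone, which may be technical.

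A dividing cell condenses its chromosomes, attaches each of them through a kinetochore to the microtubules of a spindle, and waits at the spindle checkpoint until all are attached. The anaphase-promoting complex then frees separase from its inhibitor securin, and separase cuts the cohesin rings that hold sister chromatids together. Later an actin and myosin ring parts the daughter cells. In the adult liver hepatocytes rest outside the cell cycle and divide mainly after tissue loss, so transcripts of these genes are known to be scarce in normal liver. Many of these genes are known to be transcribed in a burst in the G2 phase, under the DREAM and MuvB complexes, B-MYB and FOXM1.

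Arrays of a group resembled each other (r between 0.979 and 0.989 among tumours and between 0.970 and 0.982 among control livers, across genes), and r between the groups was 0.865 to 0.897. Control liver 3 stood apart in sex-linked genes, with an Xist value of 11.89 against 4.86 to 7.12 on the other 7 arrays and an Eif2s3y value of 3.46 against 8.56 to 9.37. By these genes control liver 3 reads as female and the other 7 arrays as male. Without control liver 3 the same number of the 52 genes, 51, was called higher, and their median log2 change was 2.60. A background level was taken from 1027 olfactory receptor genes, whose 95th percentile of group means was 6.12 in tumours and 6.26 in control livers. The control mean lay at or under that level for 37 of the 52 genes, a larger share than the 41.7% of all genes, and no tumour mean did. A fold against such a control mean is not an exact size.

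The mitosis genes were higher in the tumours almost without exception. Of the 52, 51 passed an adjusted p of 0.05 in limma in the upward direction and none in the downward direction, where 16.2% of all 19937 genes were called higher and 12.7% lower. The 1 gene that did not pass was Espl1. The log2 change ran between 0.44 and 5.32 with a median of 2.54, beside a median of -0.04 over all genes. A rise of at least 2-fold was called for 50 of the 52 (5.54% of all genes), of at least 4-fold for 35 (1.27% of all genes) and of at least 8-fold for 21 (0.391% of all genes). All 4 tumours lay above all 4 control livers for 51 of the 52, which was so for 16.3% of all genes. In bulk tissue, more cells in mitosis and more RNA per cell cannot be told apart.

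**Figure D1:**
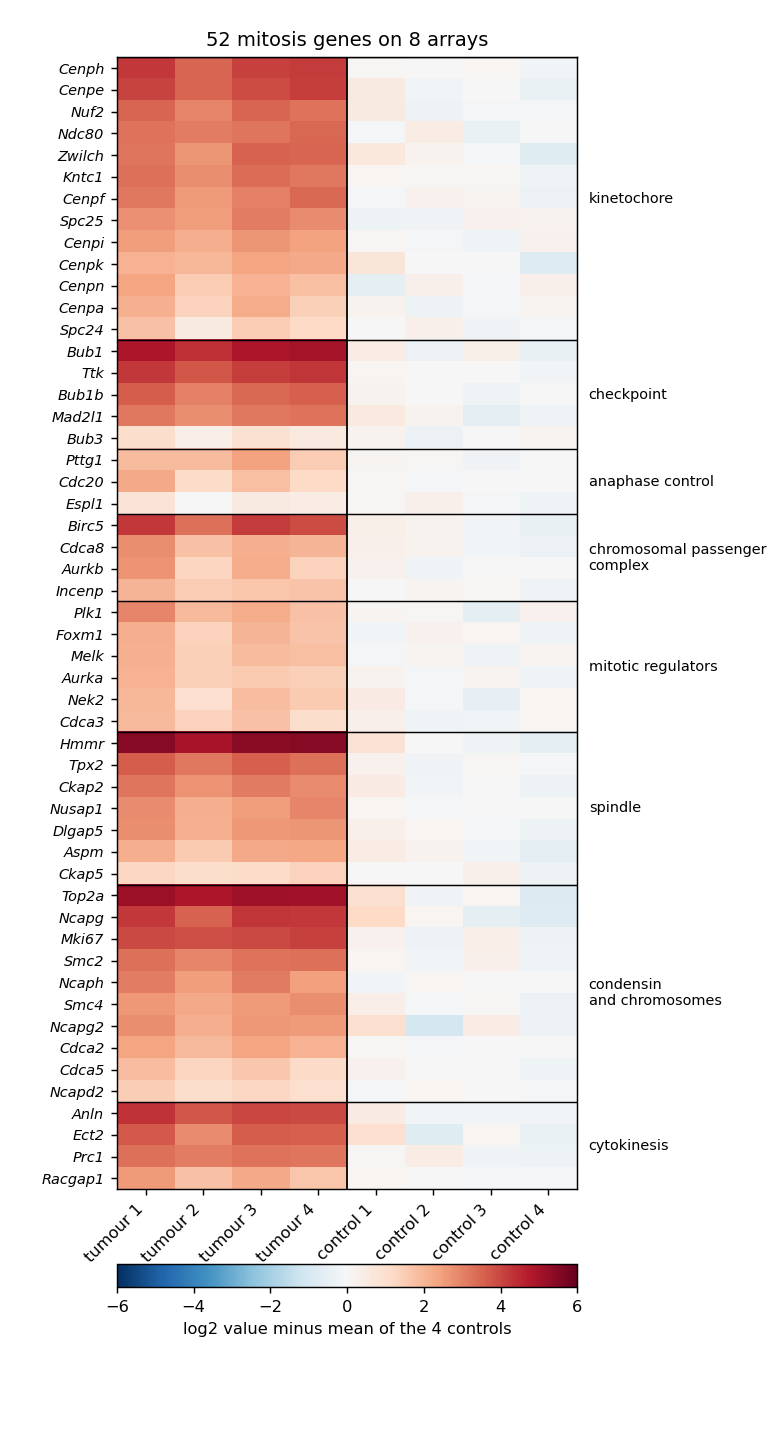
Log2 value minus the mean of the 4 control livers for 52 mitosis genes (rows, by role and then by size of change) on 8 arrays (columns, tumours left of controls). Nearly all rows are red on the 4 tumour arrays, and tumour 2 is the palest tumour column, the lowest tumour for 44 of the 52 genes.

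**Figure D2:**
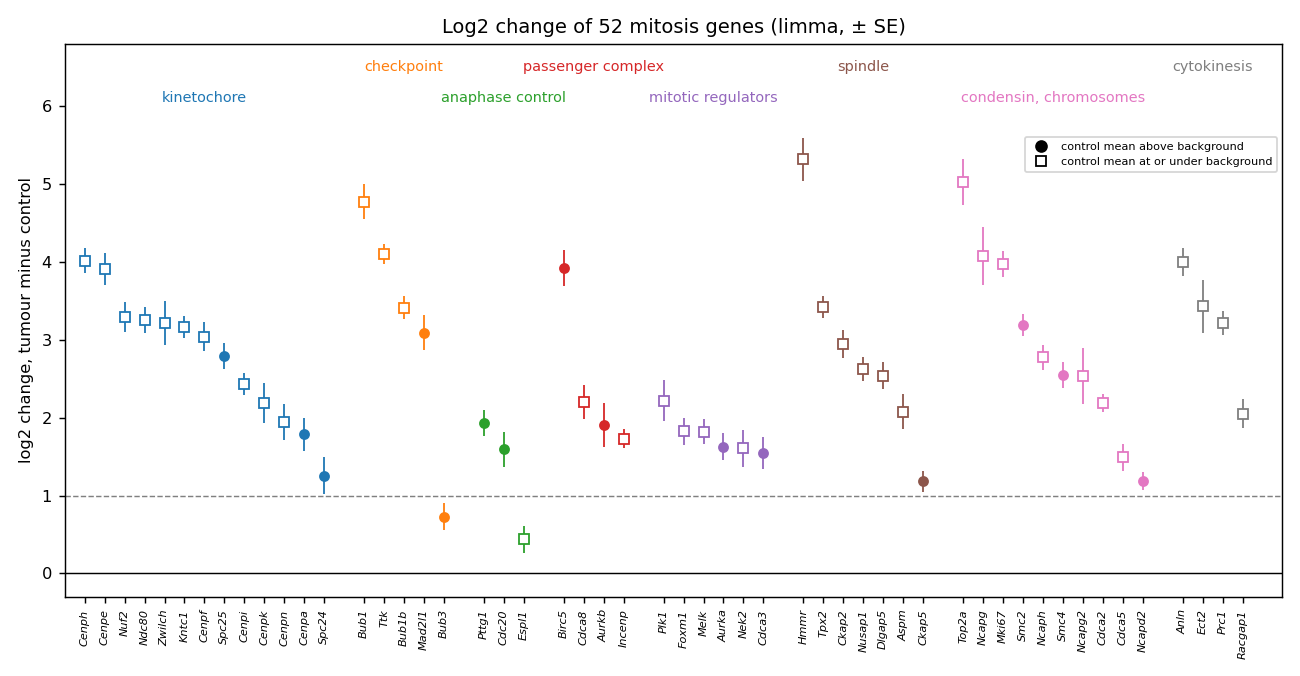
Log2 change (tumour minus control, vertical axis) with its SE from limma for each of the 52 genes, grouped by role, with a dashed line at a 2-fold rise. Open squares mark the 37 genes whose control mean lay at or under background, and Bub3 and Espl1 are the 2 genes under the dashed line.

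Short promoter sequences, which the list of names did not use, were then counted. RefSeq windows of 300 bases, from 250 bases before to 50 after a gene start in GRCm38.p6, were matched for 43 of the 52 genes, in 48 windows. Aurkb, Cdca2, Tpx2, Dlgap5, Zwilch, Spc24, Smc4, Incenp and Foxm1 had no window in the table. The cell cycle genes homology region, or CHR, is a known element of G2 and mitosis promoters, searched here as the letters TTTGAA alone. The CCAAT box, the known binding motif of NF-Y, often lies before the CHR. The 5 windows below were chosen to show the strongest riser (Hmmr), a pair of textbook G2 promoters (Plk1 and Cdc20), a strong riser without the hexamer (Bub1) and the gene that did not pass (Espl1). They run 5′ to 3′ on the strand of the gene, and capitals mark TTTGAA and CCAAT on either strand, so that TTCAAA and ATTGG are their opposite-strand forms. The windows lie at chr11:40733388-40733687 (minus strand) for Hmmr, chr7:122159185-122159484 (plus strand) for Plk1, chr4:118437294-118437593 (minus strand) for Cdc20, chr2:127831810-127832109 (minus strand) for Bub1 and chr15:102296043-102296342 (plus strand) for Espl1.
Hmmr: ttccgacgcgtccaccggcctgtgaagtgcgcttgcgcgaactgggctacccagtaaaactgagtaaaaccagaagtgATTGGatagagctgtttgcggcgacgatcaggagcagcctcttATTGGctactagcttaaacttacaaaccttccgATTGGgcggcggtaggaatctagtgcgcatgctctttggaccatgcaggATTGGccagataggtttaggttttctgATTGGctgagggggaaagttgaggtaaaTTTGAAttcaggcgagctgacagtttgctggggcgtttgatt
Plk1: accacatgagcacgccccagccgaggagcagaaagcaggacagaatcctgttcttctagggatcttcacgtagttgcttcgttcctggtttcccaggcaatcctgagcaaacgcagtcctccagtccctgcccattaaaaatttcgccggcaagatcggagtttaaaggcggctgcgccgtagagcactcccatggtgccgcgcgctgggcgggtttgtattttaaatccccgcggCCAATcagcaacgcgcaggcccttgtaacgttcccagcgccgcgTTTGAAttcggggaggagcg
Cdc20: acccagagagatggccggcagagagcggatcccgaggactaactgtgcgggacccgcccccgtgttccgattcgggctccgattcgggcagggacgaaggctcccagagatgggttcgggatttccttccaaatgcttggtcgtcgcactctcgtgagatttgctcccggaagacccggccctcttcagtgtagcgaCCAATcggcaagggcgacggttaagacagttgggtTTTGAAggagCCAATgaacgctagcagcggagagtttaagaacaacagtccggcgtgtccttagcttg
Bub1: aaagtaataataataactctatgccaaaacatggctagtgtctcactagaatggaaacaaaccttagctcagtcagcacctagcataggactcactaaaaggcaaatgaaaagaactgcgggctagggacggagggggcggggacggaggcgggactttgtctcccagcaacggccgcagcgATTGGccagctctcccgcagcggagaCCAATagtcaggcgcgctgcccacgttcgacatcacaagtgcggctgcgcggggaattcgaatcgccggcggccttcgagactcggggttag
Espl1: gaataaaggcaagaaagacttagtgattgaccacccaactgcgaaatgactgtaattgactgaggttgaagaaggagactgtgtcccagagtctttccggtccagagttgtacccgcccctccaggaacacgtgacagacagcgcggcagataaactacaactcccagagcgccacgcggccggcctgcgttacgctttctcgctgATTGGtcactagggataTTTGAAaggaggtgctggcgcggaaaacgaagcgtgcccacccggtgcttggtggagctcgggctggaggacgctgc

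The hexamer TTTGAA, on either strand, was found in 33 of the 48 windows of the mitosis genes, or 68.8%, against 17.9% of all 32851 windows in the table and 14.3% of the 3140 windows of other genes called higher in the tumours. Within 50 bases of the start it was in 29 of the 48 windows, or 60.4%, against 4.94% of all windows. It began at base +9 from the start in Hmmr, +31 in Plk1, -18 in Cdc20 and -27 in Espl1. CCAAT, on either strand, was in 37 of the 48 windows, or 77.1%, against 37.4% of all windows and 37.7% of those of other genes called higher. By gene, 30 of the 43 held the hexamer, 32 held CCAAT and 26 held both, while Birc5, Mad2l1, Melk, Ncaph, Nuf2, Nusap1 and Pttg1 held neither.

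A pair of other motifs was searched on both strands. CACGTG, the E-box that MYC and MAX are known to bind, was in 3 of the 48 windows, or 6.25%, against 7.15% of all windows and 12.4% of those of other genes called higher. An E2F motif, searched as TTTCGCGC, TTTGGCGC, TTTCCCGC or TTTGCCGC, was also in 3 windows, or 6.25%, against 2.26% of all windows and 5.41% of those of other genes called higher. No motif word contains another, although matches can share bases in a window. Among the 43 genes the median log2 change was 2.66 for the 30 genes with TTTGAA and 2.77 for the 13 without TTTGAA. These are matches of letters in fixed windows, described without a test. Only TTTGAA was searched for the CHR, so a gene without these letters, such as Bub1, is not shown to lack the element.

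**Figure D3:**
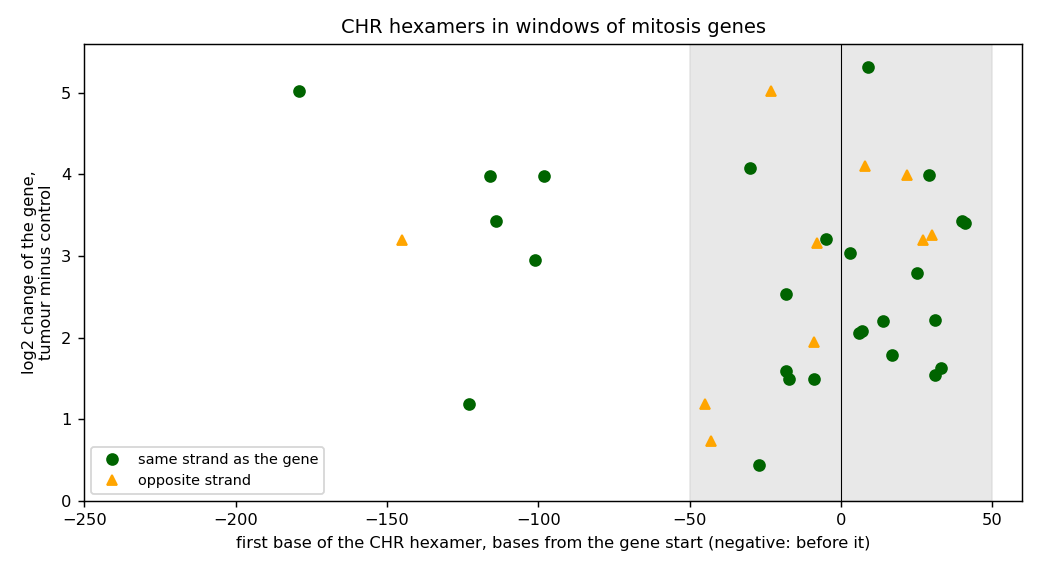
Position of the first base of each CHR hexamer in the first RefSeq window of a mitosis gene (horizontal axis, bases from the gene start) against the gene's log2 change, tumour minus control (vertical axis). Most hexamers lie in the grey band within 50 bases of the start, at rises between 0.44 (Espl1) and 5.32 (Hmmr).

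All 13 kinetochore genes rose, by a median of 3.04 on the log2 scale. Cenph, a subunit of the inner plate that stays on the centromere, read 8.77, 8.04, 8.64 and 8.74 in tumours 1 to 4, against 4.62, 4.50, 4.63 and 4.37 in control livers 1 to 4. The 4 tumours lay far above the 4 control livers and the controls within 0.26 of each other (log2 change 4.01, SE 0.16, adjusted p = 6.78e-08 in limma). Cenpe, the kinetochore motor that carries chromosomes to the spindle equator, read 9.03, 8.49, 8.88 and 9.15 in tumours 1 to 4, against 5.53, 4.82, 4.99 and 4.57 in control livers 1 to 4, a log2 change of 3.91 (SE 0.21). Cenpf, a large coiled-coil protein of the outer plate, changed by 3.04 (SE 0.19).

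Cenpa, the histone H3 variant that marks the centromere, read 8.83, 8.08, 8.94 and 8.12 in tumours 1 to 4, against 6.94, 6.38, 6.64 and 6.87 in control livers 1 to 4. The groups did not overlap, and the change was 1.78 (SE 0.21) on the log2 scale, from controls that lay above background. The other members of the constitutive inner plate changed by 2.43 (SE 0.14) for Cenpi, 2.19 (SE 0.26) for Cenpk and 1.94 (SE 0.23) for Cenpn. The NDC80 complex, the rod that grips the microtubule, has 4 subunits. Ndc80 and Nuf2, which form its microtubule end, changed by 3.25 (SE 0.16) and 3.30 (SE 0.19), and Spc25 and Spc24, which form its kinetochore end, by 2.79 (SE 0.16) and 1.25 (SE 0.24). Spc24 read 8.19, 6.96, 7.92 and 7.61 in tumours 1 to 4, against 6.41, 6.74, 6.21 and 6.29 in control livers 1 to 4. Tumour 2 lay only just above the highest control, and the Spc24 rise did not pass a test against a 1.5-fold change (adjusted p = 0.0899 in limma). Kntc1 and Zwilch, subunits of the RZZ complex that brings dynein and checkpoint proteins to the kinetochore, changed by 3.16 (SE 0.14) and 3.22 (SE 0.28).

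All 5 checkpoint genes rose, by between 0.73 and 4.77 on the log2 scale with a median of 3.41. Bub1, the kinase that recruits other checkpoint proteins, read 9.67, 9.19, 9.69 and 9.82 in tumours 1 to 4, against 5.27, 4.45, 5.18 and 4.38 in control livers 1 to 4. The rise was 27.3-fold (log2 change 4.77, SE 0.22), not an exact size with controls under background. Ttk, which encodes the kinase MPS1 that starts checkpoint signalling, read 9.16, 8.66, 9.07 and 9.18 in tumours 1 to 4, against 5.04, 4.95, 4.89 and 4.77 in control livers 1 to 4 (log2 change 4.11, SE 0.13). Its adjusted p of 1.71e-08 in limma was the smallest of the 52. Bub1b, which encodes the checkpoint protein BUBR1, changed by 3.41 (SE 0.15).

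Mad2l1, whose product MAD2 binds and holds back CDC20, read 10.80, 10.43, 10.77 and 10.87 in tumours 1 to 4, against 8.20, 7.85, 7.07 and 7.37 in control livers 1 to 4. It was well above background in control livers and still rose 8.54-fold (log2 change 3.09, SE 0.22). Bub3, the adaptor protein that carries BUB1 and BUBR1 to the kinetochore, read 8.78, 8.11, 8.61 and 8.29 in tumours 1 to 4, against 7.95, 7.35, 7.69 and 7.88 in control livers 1 to 4. The groups were apart by 0.16, and the change was 0.73 (SE 0.17) with an adjusted p of 0.00935 in limma. The Bub3 rise did not pass against a 1.5-fold change (adjusted p = 1 in limma).

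Of the 3 anaphase control genes 2 rose and Espl1 did not pass, with a median log2 change of 1.60. Cdc20, the activator of the anaphase-promoting complex in mitosis, read 8.70, 7.56, 8.26 and 7.63 in tumours 1 to 4, against 6.53, 6.35, 6.44 and 6.45 in control livers 1 to 4. The 4 control livers lay within 0.17 of each other and the 4 tumours spread over 1.15 (log2 change 1.60, SE 0.22). Pttg1 encodes securin, the inhibitor that holds separase inactive until anaphase. It read 9.04, 9.01, 9.53 and 8.67 in tumours 1 to 4, against 7.29, 7.18, 6.94 and 7.11 in control livers 1 to 4, a log2 change of 1.93 (SE 0.17).

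Espl1, which encodes separase, the protease that cuts cohesin, read 6.84, 6.09, 6.61 and 6.53 in tumours 1 to 4, against 6.15, 6.40, 5.97 and 5.80 in control livers 1 to 4. Tumour 2 lay inside the range of the control livers, and the change of 0.44 (SE 0.17) had an adjusted p of 0.0873 in limma. Leaving out tumour 2 gave a change of 0.58 that passed (adjusted p = 0.0205 in limma), and leaving out control liver 2 gave 0.55, which also passed (0.0491). Its control mean lay at background and its tumour mean, 6.52, just above it.

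The 4 genes of the chromosomal passenger complex, which corrects wrong attachments and later marks the cleavage site, all rose, by a median of 2.05. Birc5, which encodes survivin, read 10.88, 9.93, 10.86 and 10.58 in tumours 1 to 4, against 7.00, 6.87, 6.50 and 6.22 in control livers 1 to 4. Its control mean lay above the background level, and the rise was 15.1-fold (log2 change 3.92, SE 0.23). Aurkb, the kinase of the complex, read 9.06, 7.67, 8.62 and 7.79 in tumours 1 to 4, against 6.64, 6.15, 6.36 and 6.38 in control livers 1 to 4. The tumours spread over 1.39 on the log2 scale while the control livers spread over 0.49 (log2 change 1.90, SE 0.28). Cdca8, which encodes borealin, and Incenp, the scaffold, changed by 2.20 (SE 0.22) and 1.73 (SE 0.13).

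Among mitotic regulators all 6 rose, by a median of 1.72 and between 1.55 (SE 0.20) for Cdca3, which helps to trigger entry into mitosis, and 2.22 (SE 0.26) for Plk1. Plk1, the polo-like kinase that acts at centrosomes, kinetochores and the cleavage furrow, read 8.81, 7.78, 8.11 and 7.62 in tumours 1 to 4, against 6.03, 5.94, 5.33 and 6.13 in control livers 1 to 4. Tumour 1 was the highest by 0.71 and tumour 4 the lowest. Foxm1, the transcription factor of G2 genes, read 8.44, 7.65, 8.27 and 7.96 in tumours 1 to 4, against 6.10, 6.52, 6.38 and 6.02 in control livers 1 to 4 (log2 change 1.82, SE 0.18). Aurka, the centrosome kinase, changed by 1.63 (SE 0.17), Nek2, a kinase that parts the centrosomes, by 1.60 (SE 0.24), and the kinase gene Melk by 1.82 (SE 0.16). None of the 6 reached a measured 8-fold rise. The control means of 4 of them, Plk1, Nek2, Melk and Foxm1, lay at or under background, so their rises may be understated.

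All 7 spindle genes rose, by a median of 2.62. Hmmr, a microtubule-binding protein of spindle poles, had the largest change of the 52 and read 9.50, 8.96, 9.46 and 9.51 in tumours 1 to 4, against 4.91, 4.03, 3.78 and 3.44 in control livers 1 to 4. The control livers lay between 3.44 and 4.91, under the background level, so that the log2 change of 5.32 (SE 0.27) is not an exact size. Tpx2, which activates Aurora A on spindle microtubules, read 8.89, 8.41, 8.86 and 8.56 in tumours 1 to 4, against 5.51, 5.03, 5.33 and 5.15 in control livers 1 to 4 (log2 change 3.42, SE 0.14). Ckap2 and Nusap1, which bind and stabilise spindle microtubules, changed by 2.95 (SE 0.18) and 2.62 (SE 0.16), Dlgap5, which helps to build kinetochore fibres, by 2.54 (SE 0.17), and Aspm, a spindle pole protein whose loss in humans causes small brains, by 2.08 (SE 0.23). Ckap5, a microtubule polymerase that resting cells also use, read 9.34, 9.16, 9.22 and 9.48 in tumours 1 to 4, against 8.10, 8.15, 8.40 and 7.80 in control livers 1 to 4. It was well above background in control livers, the groups lay apart by 0.75, and its rise was the smallest of the 7 (log2 change 1.18, SE 0.13).

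The 10 genes of condensin and mitotic chromosomes all rose, by a median of 2.66. Top2a, the topoisomerase that untangles sister chromatids, read 10.88, 10.62, 10.84 and 10.82 in tumours 1 to 4, against 6.71, 5.55, 5.87 and 4.93 in control livers 1 to 4 (log2 change 5.03, SE 0.30). A second probe set of Top2a was dimmer, with means of 5.94 in tumours and 4.90 in control livers that lay under the background level of each group, so no size of change is read from it. Mki67, which encodes the surface coat of mitotic chromosomes known as Ki-67, read 9.49, 9.42, 9.49 and 9.62 in tumours 1 to 4, against 5.81, 5.18, 5.91 and 5.22 in control livers 1 to 4. The 4 tumours lay within 0.20 of each other. The rise was 15.7-fold (log2 change 3.98, SE 0.17), not an exact size with controls under background. Cdca5, which encodes sororin, a guard of cohesion, and Cdca2, a phosphatase partner that acts at mitotic exit, changed by 1.49 (SE 0.17) and 2.19 (SE 0.11).

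Condensin I and condensin II share the ATPase subunits SMC2 and SMC4. Smc2 read 9.93, 9.56, 9.88 and 9.92 in tumours 1 to 4, against 6.75, 6.47, 6.92 and 6.39 in control livers 1 to 4. Smc4 read 10.61, 10.31, 10.57 and 10.81 in tumours 1 to 4, against 8.44, 7.89, 8.10 and 7.68 in control livers 1 to 4. Both were above background in control livers and both rose (log2 changes of 3.19, SE 0.14, and 2.55, SE 0.17). The subunits of condensin I changed by 4.08 (SE 0.37) for Ncapg, 2.77 (SE 0.16) for Ncaph and 1.19 (SE 0.12) for Ncapd2. Ncapd2 read 7.98, 7.54, 7.73 and 7.50 in tumours 1 to 4, against 6.45, 6.62, 6.50 and 6.43 in control livers 1 to 4, with controls within 0.19 of each other. Of condensin II, Ncapg2 changed by 2.54 (SE 0.36) from control livers that spread between 3.98 and 5.98.

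The 4 cytokinesis genes rose by a median of 3.32. Anln, which encodes anillin, the scaffold of the contractile ring, read 9.25, 8.62, 8.89 and 8.84 in tumours 1 to 4, against 5.39, 4.74, 4.76 and 4.73 in control livers 1 to 4 (log2 change 4.00, SE 0.18). Prc1, which bundles the microtubules of the central spindle, read 8.73, 8.48, 8.71 and 8.67 in tumours 1 to 4, against 5.50, 5.86, 5.23 and 5.14 in control livers 1 to 4 (log2 change 3.21, SE 0.15). Ect2, the exchange factor that switches on RhoA at the cleavage site, read 9.43, 8.58, 9.42 and 9.35 in tumours 1 to 4, against 6.78, 5.05, 5.87 and 5.35 in control livers 1 to 4. Its control livers spread over 1.73 and still lay under every tumour (log2 change 3.43, SE 0.34). Racgap1, which recruits ECT2 to the central spindle, read 8.07, 7.25, 7.76 and 7.16 in tumours 1 to 4, against 5.63, 5.49, 5.44 and 5.45 in control livers 1 to 4 (log2 change 2.05, SE 0.19).

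Partners in a complex or step were then set against each other. For 16 pairs the difference of log2 values within each array was compared between groups by an exact two-sided permutation test over the 8 arrays, adjusted by Benjamini and Hochberg over the 16. The pairs were written with earlier results of these data known. For 10 of the 16 the 4 tumours lay all on 1 side of the 4 control livers. This gives an exact permutation p = 0.0286, the smallest that 70 assignments allow, and an adjusted p of 0.0457. That adjusted p depends on how many of the chosen pairs reached the smallest p. How often other pairs of genes lie apart in this way was not counted. The 10 of 16 therefore has no share over all pairs beside it and is not read as a result about these complexes. Without any 1 tumour none of the 16 passed (adjusted p between 0.0571 and 0.0831 for these 10), because fewer pairs then reached the smallest p. Without control liver 3, 11 passed, with Bub1b minus Mad2l1 added at an adjusted p of 0.0416.

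In 5 of these 10 pairs the partner with the smaller change lay above background in control livers. Bub1 minus Bub3 was 1.15 ± 0.27 in tumours and -2.90 ± 0.44 in control livers (SD, n = 4 each), so that Bub1 rose by 4.04 more on the log2 scale. Within condensin I, Ncaph minus Ncapd2 was 0.70 ± 0.21 in tumours and -0.89 ± 0.07 in control livers, a difference in change of 1.59. At the kinetochore end of the NDC80 rod, Spc25 rose by 1.54 more than Spc24 as measured. Dlgap5 rose by 1.36 more than Ckap5, and Smc2 by 0.64 more than Smc4. Bub1, Ncaph and Dlgap5 were themselves under background in control livers, so the differences of their pairs are not exact sizes.

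In the other 5 pairs the partner with the smaller change (Incenp, Ncapg2, Cenpf, Racgap1 or Espl1) was at or under background in control livers. Its rise may be understated there, so neither the size nor the direction of the difference between partners is settled. The measured values were 2.77 ± 0.32 in tumours and 0.59 ± 0.28 in control livers for Birc5 minus Incenp, and 1.93 ± 0.15 in tumours and 0.39 ± 0.93 in control livers for Ncapg minus Ncapg2. Espl1 minus Pttg1 was -2.54 ± 0.43 in tumours and -1.05 ± 0.23 in control livers. The difference changed by 1.38 for Ect2 minus Racgap1 and by 0.86 for Cenpe minus Cenpf.

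Other pairs did not pass. Ndc80 minus Nuf2 was 0.56 ± 0.25 in tumours and 0.60 ± 0.60 in control livers (adjusted p = 0.886, exact permutation test), and Kntc1 minus Zwilch changed by -0.06 (adjusted p = 0.884, exact permutation test). Plk1 minus Nek2 changed by 0.62 (0.0831), Bub1b minus Mad2l1 by 0.32 (0.229), Aurkb minus Aurka by 0.28 (0.387) and Cenpk minus Cenpn by 0.25 (0.718), by the same test. These p-values do not show that the partners changed alike. In 13 of the 16 pairs 1 or both partners were at background in control livers.

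**Figure D4:**
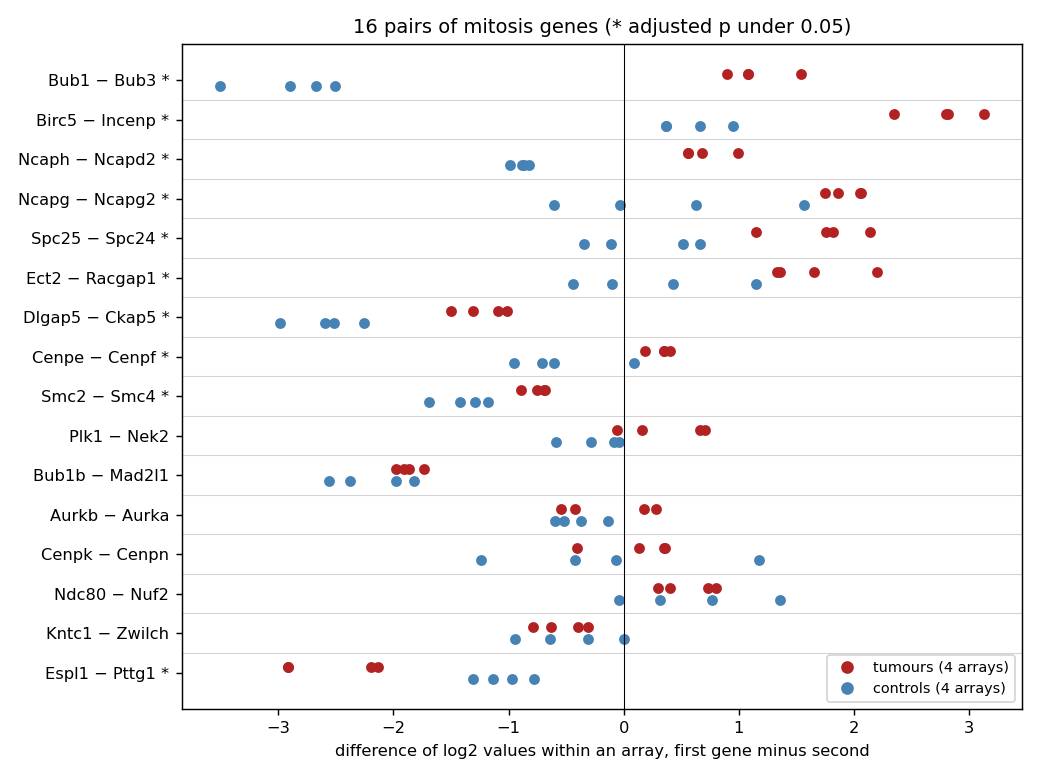
Difference of log2 values between the first and the second gene of 16 pairs (rows) on each array, with tumours as red points above controls as blue points, on a log2 axis. Red and blue points do not overlap in the 10 pairs marked with a star, of which 5 have a smaller-changing partner at background in control livers. Bub1 minus Bub3 stood at 1.15 in tumours and -2.90 in control livers on average.

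The 4 tumours differed in how high the mitosis genes stood. The median over the 52 genes of the log2 value minus the control mean was 2.80 in tumour 1, 2.19 in tumour 2, 2.61 in tumour 3 and 2.61 in tumour 4. Tumour 2 was the lowest tumour for 44 of the 52 genes, or 84.6%, against 23.5% of all genes and 33.8% of the other 3174 genes called higher. The exceptions were Pttg1, Plk1, Aurka, Cdca3, Ncaph, Ncapd2, Cdca5 and Racgap1, in which tumour 4 was the lowest. The mean of the other 3 tumours exceeded tumour 2 by a median of 0.47 over the 52 genes and of 0.01 over all genes. Tumour 2 also had the highest mean of the 7 hepatocyte markers among tumours, 10.36 against 10.07 to 10.23. It was the highest tumour for Alb, Apoa1 and Cps1, but not for Ttr, Hnf4a, Asgr1 or Cyp2e1. The part of the hepatocyte markers in the result was not tested. Without tumour 2 the median log2 change was 2.67 and all 52 genes passed.

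Which tumour stood highest also varied among the genes. Tumour 1 was the highest tumour for 30 of the 52 genes, or 57.7%, against 21.8% of all genes and 47.3% of the other genes called higher. Tumour 4 was the highest for 12, or 23.1%, against 42.4% of all genes and 18.5% of the other genes called higher. Tumour 4 minus tumour 1 ran between -1.28 for Aurkb and 0.28 for Cenpf, beside an SD of 0.37 over all genes. In kinetochore genes tumour 4 stood at a median of 3.18 and tumour 1 at 3.16, whereas in the passenger complex they stood at 1.87 and 2.74 and in anaphase control at 1.19 and 1.91. Genes within a role varied too, with tumour 4 minus tumour 1 between -0.71 for Cenpa and 0.28 for Cenpf in the kinetochore. Each tumour is 1 array, so these differences have no replicate check. Among control livers, control liver 1 was the highest for 34 of the 52 genes, or 65.4%, against 23.6% of all genes and 29.7% of the other genes called higher, and its median stood 0.22 above the control mean. Control liver 4 was the lowest for 27 of the 52, or 51.9%, against 29.3% of all genes and 30.5% of the other genes called higher, with a median of -0.22.

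**Figure D5:**
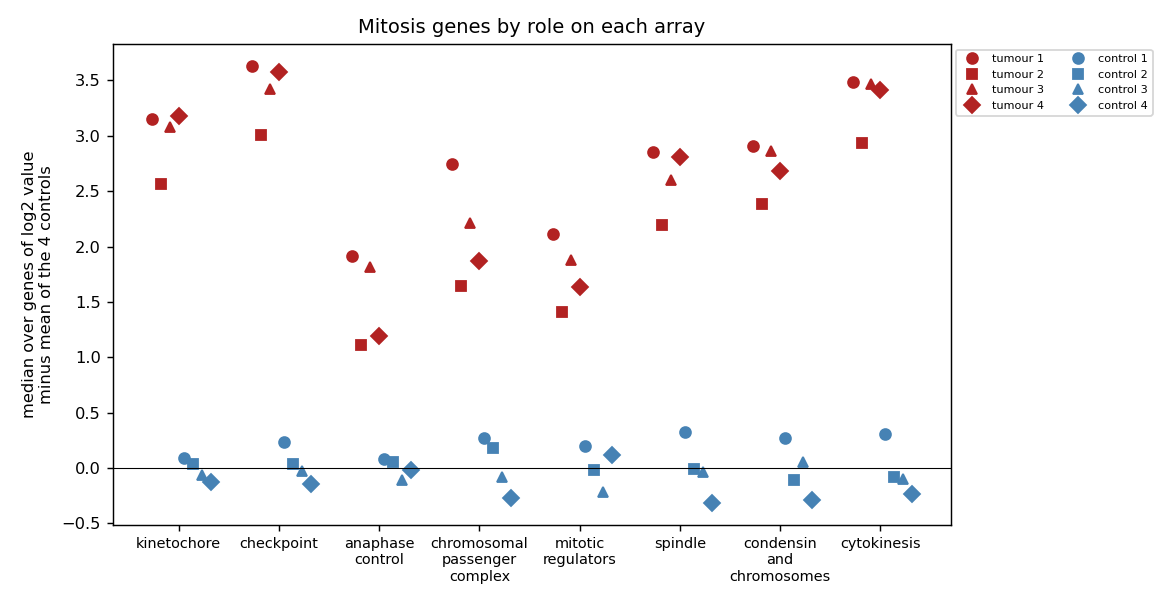
Median over the genes of each role of the log2 value minus the mean of the 4 control livers (vertical axis), for 4 tumours (red) left of 4 control livers (blue), with 1 symbol per replicate number. Tumour 2 (red squares) is the lowest tumour in each of the 8 roles, and the control livers lie between -0.32 and 0.32.

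Other genes of the same machinery were read from 9 lists that hold none of the 52. Of 126 genes listed 121 were measured, and 75 were higher and 2 lower, with a median log2 change of 0.77, where 16.2% of all genes were called higher and 12.7% lower. Values in brackets from here on are log2 changes of tumours minus control livers with their SE. In the inner kinetochore 10 of 12 were higher, led by Cenpp (2.25, SE 0.17), Oip5, which helps to load CENP-A (1.94, SE 0.23), and Cenpq (1.90, SE 0.23). In the outer kinetochore 9 of 15 were higher, led by Knl1, the scaffold that binds BUB1 and BUB3 (4.30, SE 0.17), Ska3 of the SKA complex (3.24, SE 0.18) and the cohesin protector gene Sgo2a (3.05, SE 0.18). Of the genes of mitotic entry 10 of 13 were higher, led by Ccna2, Cdk1 and Ccnb2 with log2 changes of 4.25 (SE 0.16), 3.33 (SE 0.17) and 2.90 (SE 0.24).

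Median changes were smaller in the other lists. In the anaphase-promoting complex and its partners 10 of 17 were higher, with a median of 0.52, and the largest rises were those of the E2 enzyme gene Ube2c (2.70, SE 0.25), the inhibitor gene Fbxo5 (2.60, SE 0.18) and the subunit gene Cdc23 (1.24, SE 0.12). In cohesin 7 of 12 were higher, with a median of 0.55, led by the acetyltransferase gene Esco2 (2.99, SE 0.25) and the ring subunit genes Smc3 (1.12, SE 0.11) and Rad21 (1.03, SE 0.11). Of 4 further condensin and SMC genes, Ncapd3 of condensin II and Smc6 were higher, by 0.78 (SE 0.09) and 0.79 (SE 0.15).

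In spindle and centrosome genes 15 of 23 were higher, led by Plk4, the kinase that starts centriole copying (2.92, SE 0.18), Tacc3 (2.58, SE 0.18) and the augmin gene Haus6 (2.44, SE 0.15), and Tacc1 was lower (-0.42, SE 0.13). The Tacc1 call was lost without tumour 1, 3 or 4 or control liver 1 or 4 (adjusted p between 0.0743 and 0.0859 in limma) and with median centring (0.0537). In cytokinesis 4 of 11 were higher, among them Cep55 of the midbody (2.12, SE 0.18), the formin gene Diaph3 (1.65, SE 0.14) and the citron kinase gene Cit (0.79, SE 0.11). Of the DREAM, MuvB and NF-Y genes 9 of 15 were higher, led by Lin9 of MuvB (1.94, SE 0.20), the E2F partner gene Tfdp1 (1.75, SE 0.16) and Mybl2, which encodes B-MYB (1.15, SE 0.13). Rbl2, which encodes p130, the pocket protein of DREAM in resting cells, was lower: it read 7.28, 7.37, 7.53 and 7.50 in tumours 1 to 4, against 7.99, 7.72, 8.31 and 7.99 in control livers 1 to 4 (log2 change -0.58, SE 0.13, adjusted p = 0.00582 in limma).

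Markers of other cells were read beside these genes. Over all genes 16.2% were called higher and 12.7% lower in limma. In lists this short, 1 call in either direction is near those shares. None of 11 lymphocyte and none of 7 erythroid markers passed in either direction in limma, and 7 of the 11 and 3 of the 7 lay at or under background in tumours. Their mean levels were 5.83 to 6.08 in tumours and 5.76 to 6.15 in control livers for lymphocyte markers, and 5.92 to 6.22 in tumours and 6.09 to 6.23 in control livers for erythroid markers. Of 9 Kupffer cell and macrophage markers 3 were higher, Ms4a7 (2.83, SE 0.34), Cd68 (2.11, SE 0.26) and Cd5l (0.79, SE 0.24), and 2 lower, Vsig4 (-2.38, SE 0.50) and Clec4f (-1.75, SE 0.18), with list means of 7.14 to 7.78 in tumours and 6.98 to 7.69 in control livers. The Cd5l call was lost without tumour 1 or 3 or control liver 2 or 4 (adjusted p between 0.0676 and 0.0863 in limma). Endothelial markers had 5 of 8 lower and none higher, with the largest changes in Clec4g (-2.71, SE 0.15), Stab2 (-1.53, SE 0.17) and Kdr (-1.10, SE 0.20). Their list means were 6.67 to 7.07 in tumours and 7.19 to 7.82 in control livers. Stellate cell and fibroblast markers had 1 of 9 higher, Col1a2 (0.30, SE 0.10), and 3 lower, Reln (-1.66, SE 0.13), Lrat (-1.64, SE 0.28) and Dcn (-1.46, SE 0.40), with list means of 6.90 to 7.18 in tumours and 7.26 to 7.52 in control livers. The Col1a2 call was lost without any 1 of the 8 arrays other than control liver 2 (adjusted p between 0.0506 and 0.103 in limma) and with quantile normalisation (0.0569). That of Dcn was lost without tumour 4 (adjusted p = 0.0578 in limma) and with array weights (0.0963).

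All 7 hepatocyte markers were lower, with the largest changes in Cyp2e1 (-6.38, SE 0.26), Asgr1 (-2.78, SE 0.26) and Cps1 (-0.71, SE 0.20), and with list means of 10.07 to 10.36 in tumours and 11.81 to 12.09 in control livers. Alb, which encodes albumin and defines hepatocytes, was still bright in every tumour, at 12.42, 12.77, 12.53 and 12.21 in tumours 1 to 4, against 13.03, 13.03, 12.94 and 13.01 in control livers 1 to 4. Bile duct markers had 1 of 5 higher, Epcam (0.88, SE 0.17), and 1 lower, Sox9 (-0.32, SE 0.10), with means of 5.66 to 6.03 in tumours and 5.67 to 5.77 in control livers. These 2 counts are near the shares over all genes, 16.2% higher and 12.7% lower. Single arrays decided the call of Sox9, lost without any 1 array except tumour 4 (adjusted p between 0.0532 and 0.113 in limma), and that of Cps1, lost without tumour 4 (0.0609) or control liver 2 (0.0659). The hepatocyte marker Hnf4a passed only narrowly (adjusted p = 0.0494 in limma), with tumour 1 inside the range of the control livers. Its call was not among those checked without single arrays. Which cells carried the mitotic transcripts was not tested.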

How the data were processed

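The deposited values are on a log2 scale, with 34760 probe sets measured on each of 8 arrays. Per the submitters' processing notes the authors used RMA and R 3.0.2, and RMA corrects background, normalises between arrays and summarises probes. Settings and genome build are not given in the sources used here. Array medians lay between 6.33 and 6.44, and precision is limited by having 4 arrays in a group.

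Gene names came from the annotation of the array platform. Of the probe sets, 21640 had 1 gene symbol, 1321 several and 11799 none, and 21553 matched a RefSeq gene identifier (GRCm38.p6, used for names). The brightest probe set per gene was kept, leaving 19937 genes. Groups were compared with limma 3.58.1 in R 4.3.3 (lmFit and eBayes, group as the only term, Benjamini and Hochberg over all genes, threshold 0.05). Errors are SD of 4 arrays or SE from limma, and every log2 change is the tumour mean minus the control mean. The fit was tested on simulated data. Promoter windows came from RefSeq. Tables used Python 3.11.15 and pandas 2.3.3.

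The 52 genes, the lists and the pairs were chosen with earlier results of these data known. Named were all 52 genes and, per other list, the 3 called genes that changed most (fewer where fewer were called) and the top gene of the rarer direction. Clec4f and Cd5l were added outside that rule, and Alb, Hnf4a, Xist and Eif2s3y were added after their values were seen. Alternatives were quantile normalisation, median centring, dropping the dimmest 33.3% of genes, array weights, eBayes with trend and robust options, a replicate block, the mean of probe sets, leaving out each array and a test against a 1.5-fold change. The files hold no scan batch that could be compared.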

Additional observations from a re-analysis of the deposited data

Results flagged for a closer look

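In 6 of 106 groups of 4 arrays (each of the 52 genes and their median, in tumours and in control livers) 1 array stood far from the other 3 by Dixon's test, where chance flags about 5% of groups. The count is near that share, and the groups lie on the same 8 arrays, so the flags are not independent. Tumour 2 was the low array in 5 of the 6. Its values were 8.96 for Hmmr (other tumours 9.46 to 9.51), 7.28 for Aspm (7.92 to 8.03), 8.97 for Ncapg (9.67 to 9.70), 9.56 for Smc2 (9.88 to 9.93) and 8.58 for Ect2 (9.35 to 9.43). Control liver 1 was the high array for Anln, at 5.39 against 4.73 to 4.76 in the other control livers, all under the background level. Without tumour 2 or control liver 1 the rises of these 6 genes were still called in limma.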

How the results depend on the processing

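Over 16 alternatives, 827 of 831 log2 changes of the 52 genes kept their direction and their side of the threshold, none reversed, 2 no longer passed (Bub3 and Spc24 against a 1.5-fold change) and 2 newly passed (Espl1 without tumour 2 or control liver 2). Called higher were 49 of the 52 against a 1.5-fold change, 50 without the dimmest 33.3% of genes (51 of the 52 were in that fit), and 51 to 52 without any 1 array. Their median log2 change lay between 2.48 and 2.67. Against a 1.5-fold change, 963 of all genes were called higher and 756 lower, and in the other lists of the machinery 46 higher and 0 lower, a stricter question by construction. Genes called lower in those lists numbered 1 with median centring and 1 with the replicate block, Tacc1 being lost in both, and 1 to 2 without any 1 array. Pairs that passed numbered 0 to 11 without any 1 array, 0 without any 1 tumour. With the replicate number as a block, 2859 genes were called higher and 2148 lower, with 51 of the 52 and 72 of the other lists higher, and the calls of Tacc1 (adjusted p = 0.0772 in limma), Sox9 (0.0684) and Col1a2 (0.105) were lost. The labels do not tell whether equal numbers pair the samples. Deviations of same-numbered arrays correlated at -0.06, 0.00, 0.05 and -0.32 across genes, and those of differently numbered arrays between -0.22 and 0.31. So few values cannot decide whether samples were paired. Of 734 values of 46 other named genes, 689 kept their call, 45 no longer passed and none reversed. Dim control signals limit the size of most rises.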

Other observations

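The CHR hexamer was also counted in the 9 other lists of the machinery, a count chosen after the values of those genes had been seen. Of 48 genes called at least 2-fold higher, 37 had a RefSeq window, and 13 of these held TTTGAA within 50 bases of the start. Of the other 73 genes 62 had a window, and 4 held it. Over all windows, counted by window and not by gene, 4.94% held it within 50 bases of the start. Among the 43 mitosis genes with a window, those with TTTGAA anywhere in it did not rise more. Their median log2 change was 2.66, against 2.77 for those without TTTGAA. Whether the hexamer goes with the size of a rise was not tested.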
